A study of Mus musculus with 30 samples.

Results

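The comparison here set 6 mice given CREST Y397D, labelled a phospho-mimetic, and a short, subthreshold training (Y397D-T3) against 6 vehicle home cage mice (VEH-HC). Its members are the 12 libraries of those conditions out of 30 in the series, and the genes are the rows of the expression table with a mean of at least 1 FPKM over the 30 libraries, 13184 of 24883 rows. FPKM are fragments counted per kilobase of transcript and scaled to the mapped fragments of the library, a unit that corrects for transcript length and library size. The series measured RNA from the dorsal hippocampus of adult male C57BL/6J wild-type mice, 1 library per mouse and 6 mice in each of 5 conditions, by paired-end sequencing.

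VEH-HC mice received the transfection reagent in vivo-jetPEI without DNA and were only handled. Y397D-T3 mice received, with the same reagent, a plasmid for HA-tagged mouse CREST with the Y397D change, in which tyrosine is replaced by aspartate, driven by a short CaMK2 promoter that is active mainly in excitatory neurons. Infusions were bilateral and were made 3 days before the object location training of 3 min, all mice were singly housed, and tissue was frozen 1 h after training. VEH-T3 mice had the same training after vehicle and are used below as a reference. In the study's task, mice were habituated to the chamber on several days before training, while home cage mice received handling only. Y397D-T3 thus differs from VEH-HC by the plasmid, the habituation and the training. The parts of these in a difference cannot be told apart from that contrast. No group carried a wild-type CREST plasmid or a plasmid in the home cage, and the labels do not say how many cells took up the plasmid. The paper states that phosphorylation of this tyrosine could not be detected, and it treats the construct as a point mutant only.

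CREST, encoded by Ss18l1, is a calcium-responsive transactivator and a subunit of the neuronal BAF chromatin remodelling complex, and it can recruit the histone acetyltransferase CBP. In hippocampal neurons, calcium entry during learning activates kinases of the ERK and calmodulin pathways, which phosphorylate factors such as CREB and SRF and switch on immediate-early genes within minutes. Their products, which include the Egr, Fos and Nr4a transcription factors, regulate later genes of synapses, and object location memory depends on the dorsal hippocampus.

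The 12 libraries had similar relative depths, between 0.947 and 1.20 times the median library, as read from the steps of the lowest FPKM values, while the absolute depth is unknown. Median FPKM of the tested rows lay between 9.76 and 10.1 in VEH-HC and between 9.17 and 9.99 in Y397D-T3. Defining markers of hippocampal cells were present: summed over 8 CA1 pyramidal markers, FPKM ranged from 337 to 365 in VEH-HC and from 347 to 435 in Y397D-T3. Markers of choroid plexus, meninges and thalamus were present as well and are given with the lowered genes below. In bulk tissue, fewer cells of a type and less RNA per cell cannot be told apart. VEH-HC mouse 4 stood apart with low values of many long transcripts (Grin2b, a glutamate receptor subunit, 4.76 FPKM against 11.3 to 13.7 in the other 5 mice), and Y397D-T3 mouse 1 was low in some of them (Cacna1e, a calcium channel subunit, 13.9 FPKM against 19.0 to 22.2).

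Ss18l1 (mm10 chr2:180042509-180070201) ranged from 11.4 to 13.3 FPKM with a median of 12.5 in VEH-HC, and from 12.9 to 14.02 with a median of 13.7 in Y397D-T3. All 6 Y397D-T3 mice were above the VEH-HC median, and the groups overlapped. The log2 fold change was 0.13 ± 0.06 (SE, limma, adjusted p = 0.163) and did not pass the threshold of 0.05. A value per gene symbol cannot separate plasmid from endogenous transcripts, so this row does not measure the plasmid. Crebbp, which encodes CBP, ranged from 3.89 to 6.59 FPKM (median 5.88) in VEH-HC and from 6.48 to 7.72 (median 7.43) in Y397D-T3, a log2 fold change of 0.32 ± 0.07 (adjusted p = 0.0103). Without VEH-HC mouse 4, the lowest mouse, the log2 fold change of Crebbp was 0.23 and its adjusted p 0.0164. VEH-T3 mice, which had no plasmid, stood at a median of 7.76 FPKM of Crebbp.

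Across the transcriptome, 515 genes (3.91% of those tested) were higher and 417 (3.16%) lower in Y397D-T3 than in VEH-HC at an adjusted p under 0.05. The differences were small: the median log2 fold change was 0.29 among the higher and −0.28 among the lower genes, or 1.24 and 0.812 times the VEH-HC mean FPKM. A change of at least 1 on the log2 scale was seen for 3 higher and 6 lower genes. In 274 of the higher genes (2.08% of those tested) every Y397D-T3 mouse was above every VEH-HC mouse, and in 221 of the lower genes (1.68%) every one was below. Before adjustment of p, 1358 genes (10.3%) passed 0.05 as higher and 1929 (14.6%) as lower. The median log2 fold change of all tested genes was −0.03. When the libraries were centred on their medians, 692 genes were higher and 248 lower, so that the share of higher genes among the called ones moved from 55.3% to 73.6%. With only the 12 libraries in the fit the balance turned, with 685 higher and 1160 lower genes. The count of higher genes fell to 327 without VEH-HC mouse 5, to 343 without Y397D-T3 mouse 2 and to 289 without Y397D-T3 mouse 5. The count of lower genes was 225 without VEH-HC mouse 2, 218 without VEH-HC mouse 5, 183, 196 and 257 without Y397D-T3 mice 2, 5 and 6. With VEH-HC mouse 4 and Y397D-T3 mouse 1 both left out, 361 genes were higher and 319 lower.

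**Figure D1:**
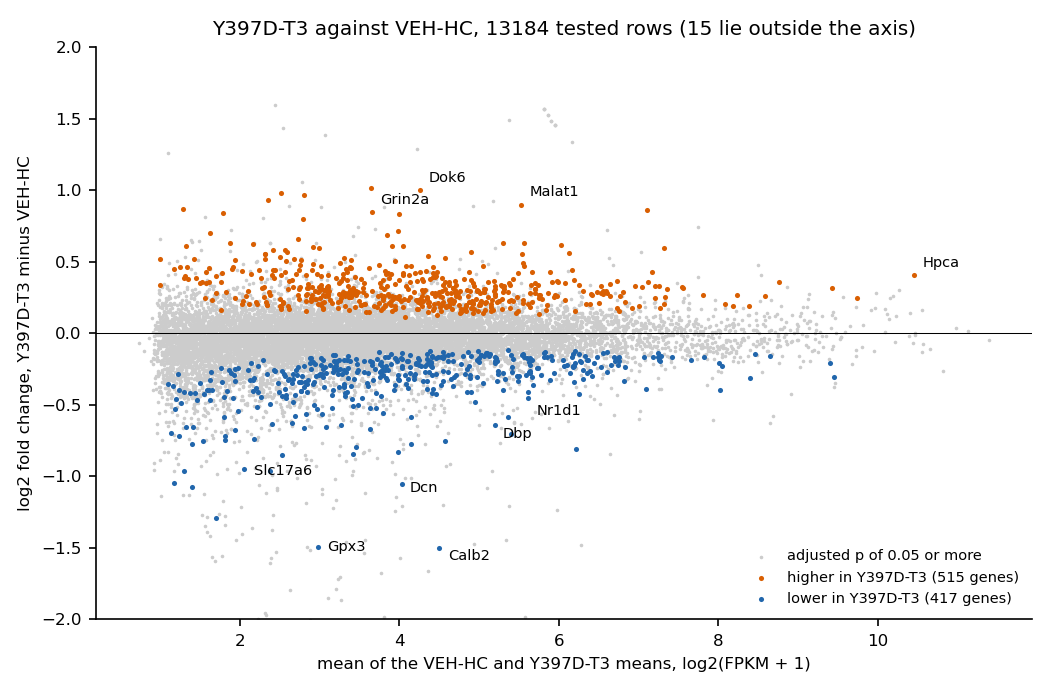
Mean level of each tested gene in log2(FPKM + 1) (x axis) against its log2 fold change between Y397D-T3 and VEH-HC (y axis), with genes of adjusted p under 0.05 in colour. The 515 higher and 417 lower genes mostly lie within 0.5 of 0 on the log2 scale, and 15 rows lie outside the axis.

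The higher genes had longer transcripts. Their median transcript length was 4771 bases, against 2960 bases for the lower genes and 3169 for all tested genes. Over 12686 genes with a known length, the log2 fold change correlated with length with a Spearman coefficient of 0.183, a description across genes, which are not independent. GC content was alike, with medians of 50.6%, 49.9% and 50.4%. With the trends of length and GC removed, 881 genes were higher and 217 lower, and these adjusted calls included 445 of the 515 and 165 of the 417.

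Immediate-early transcription factors held more higher than lower genes. Of 26 tested, 9 were higher (34.6%, beside 3.91% of all tested genes) and 0 lower, and their median log2 fold change was 0.20, beside −0.03 for all tested genes. Egr4, a zinc finger factor, ranged from 14.3 to 19.5 FPKM (median 16.5) in VEH-HC and from 18.3 to 27.7 (median 24.2) in Y397D-T3. The groups overlapped only in the lowest Y397D-T3 mouse, and the log2 fold change was 0.46 ± 0.09 (adjusted p = 0.00414). Egr1, the related factor most used as a marker of active neurons, ranged from 30.8 to 39.7 FPKM (median 37.1) in VEH-HC and from 34.997 to 66.5 (median 56.8) in Y397D-T3. Here 5 of the 6 Y397D-T3 mice lay above all VEH-HC mice, with a log2 fold change of 0.55 ± 0.13 (adjusted p = 0.0087). Nab2, a corepressor that binds Egr proteins and limits their activity, had a median of 17.9 FPKM in VEH-HC and 22.2 in Y397D-T3 (log2 fold change 0.28 ± 0.06, adjusted p = 0.00825). For Nr4a3, an orphan nuclear receptor, every Y397D-T3 mouse (17.1 to 26.0 FPKM, median 19.1) was above every VEH-HC mouse (12.4 to 16.5 FPKM, median 14.4), with a log2 fold change of 0.42 ± 0.10 (adjusted p = 0.0093). These calls held in each of the 12 fits that left out 1 mouse.

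The other called members, named after their values were seen, were Egr3, Srf, Nr4a1, Fosb and Egr2. Srf encodes the serum response factor, which drives many immediate-early genes. Egr2 ranged from 0.247 to 1.13 FPKM in VEH-HC and from 0.724 to 1.73 in Y397D-T3, a level near 1 FPKM that is measured with low precision, and its call (adjusted p = 0.034) ended in 7 of the 12 fits that left out 1 mouse. Fos, which encodes a subunit of AP-1, ranged from 3.85 to 6.46 FPKM (median 4.58) in VEH-HC and from 4.44 to 9.61 (median 7.26) in Y397D-T3. Its log2 fold change of 0.40 ± 0.14 did not pass (adjusted p = 0.0741). The count of higher members was between 6 and 10 when 1 mouse was left out, 10 with centred libraries and 13 with length and GC trends removed.

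Conserved elements of 2 kinds are often found upstream of such genes: the cAMP response element bound by CREB, searched as TGACGTCA, and the CArG box bound by SRF. RefSeq promoters of GRCm38.p6, from 250 bases before to 50 bases after the start, were found for 7 of the 9 higher factors. A CArG box was in 2 of these 7 and the cAMP element in 0. Among all 21 tested factors with a promoter, the counts were 2 and 1. Other forms of the cAMP element and sites outside these promoters were not searched. Sequences were drawn only for named genes and not for every chromosome, and the other factor with a CArG box is not shown. Egr2 held a CArG box upstream of 2 of its annotated starts, shown 5′ to 3′ on the plus strand with the CArG box in capitals:
Egr2, chr10:67537485-67537512: ggatcttctCCTTTTTTGGaaagtctcg
Egr2, chr10:67537788-67537815: ttcctcagtCCATATATGGgcagcgacg
Among all called genes the CArG box was in 2.85% of 386 promoters of higher genes and 2.12% of 330 promoters of lower genes, beside 1.57% of 9947 tested genes with a promoter. The cAMP element was in 4.15%, 2.42% and 3.59% of the same sets. A match is a description of the sequence and not a bound site.

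Among 28 tested effectors of activity, genes whose products act at synapses or in signalling, 4 were higher (14.3%) and 1 lower (3.57%). Over all tested genes these shares were 3.91% and 3.16%. The median log2 fold change of the effectors was 0.02. Homer1, a scaffold of metabotropic glutamate receptors that has a short activity-induced form, ranged from 14.4 to 17.4 FPKM (median 16.2) in VEH-HC and from 20.1 to 24.6 (median 21.9) in Y397D-T3. The groups did not overlap, and the log2 fold change was 0.44 ± 0.08 (adjusted p = 0.00159). Dnajb5, a heat shock cochaperone, rose from a median of 52.5 to 73.8 FPKM (log2 fold change 0.37 ± 0.09, adjusted p = 0.0146). Arc, which encodes a protein of synapses that promotes removal of AMPA receptors, ranged from 29.96 to 44.3 FPKM (median 37.6) in VEH-HC and from 33.5 to 75.5 (median 54.8) in Y397D-T3, with overlap. Its log2 fold change of 0.49 ± 0.15 (adjusted p = 0.0397) lost its call in 8 of the 12 fits that left out 1 mouse, where the adjusted p reached 0.0895. Bdnf, a neurotrophin, rose from a median of 10.9 to 14.5 FPKM (log2 fold change 0.32 ± 0.09, adjusted p = 0.0266), a call that ended in 7 of those fits (up to 0.0653). Rheb, a GTPase upstream of mTORC1, was lower, with a log2 fold change of −0.14 ± 0.04 (adjusted p = 0.0385), a call that ended in 7 fits and when libraries were centred. The list held 6 higher and 0 lower members with centred libraries, 9 and 0 with length and GC trends removed, and 2 higher without VEH-HC mouse 5 or Y397D-T3 mouse 1, 4, 5 or 6.

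Feedback regulators of the ERK pathway were higher in 3 of 13 tested genes (23.1%) and lower in 0, beside 3.91% and 3.16% of all tested genes. Their median log2 fold change was 0.10. Dusp6, a phosphatase that inactivates ERK, ranged from 17.4 to 19.5 FPKM (median 18.1) in VEH-HC and from 19.5 to 33.1 (median 27.7) in Y397D-T3, so that the ranges met only at their ends. Its log2 fold change was 0.53 ± 0.10 (adjusted p = 0.00245). Spred2 and Spred1, inhibitors of the activation of Raf, showed no overlap between groups, with log2 fold changes of 0.26 ± 0.05 (adjusted p = 0.00583) and 0.19 ± 0.04 (adjusted p = 0.0087). All 3 calls held in each of the 12 fits that left out 1 mouse.

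**Figure D2:**
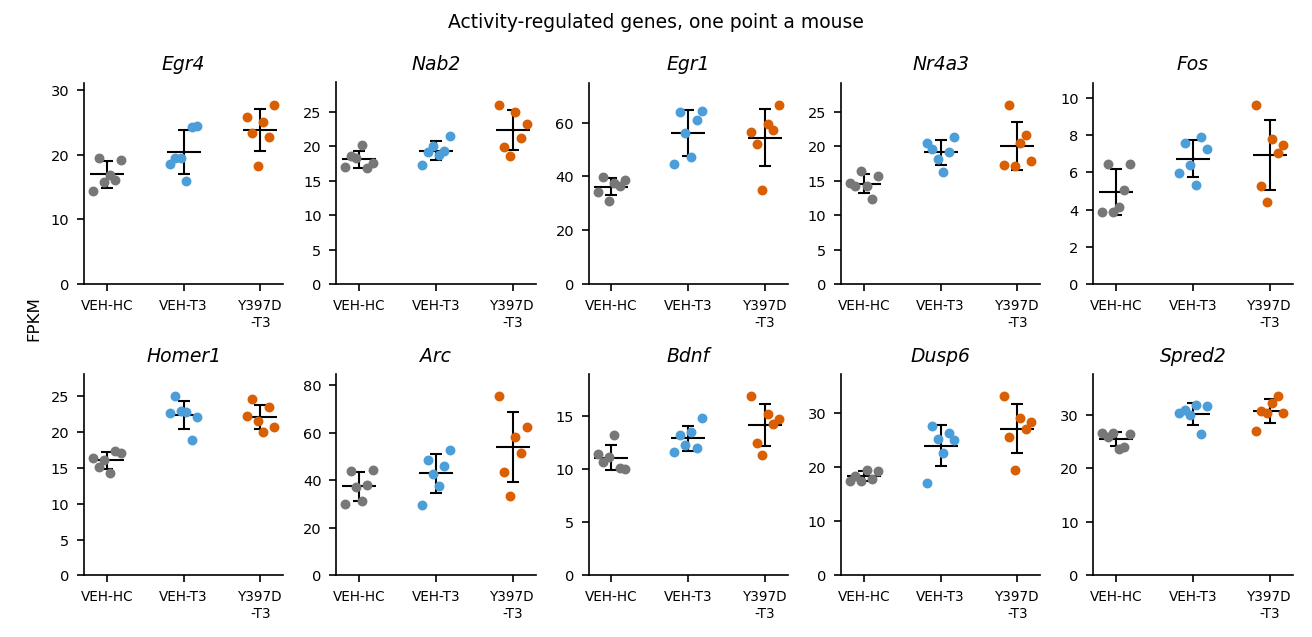
FPKM of 10 activity-regulated genes in each mouse (points), with the mean and SD of 6 mice (bars), for VEH-HC, VEH-T3 and Y397D-T3. Homer1, Nr4a3 and Spred2 did not overlap between Y397D-T3 and VEH-HC, Fos and Arc overlapped, and VEH-T3 mice had means above those of VEH-HC in each panel.

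The contrast with VEH-T3, in which training was the same, asks what the plasmid added to a 3 min training. VEH-T3 mice received the reagent without DNA. The contrast therefore cannot separate the Y397D change from the added CREST or the DNA. There 0 genes were higher (0.0%) and 1 lower (0.00758%) by limma at an adjusted p under 0.05. Before adjustment, 679 genes (5.15%) passed 0.05 as higher and 358 (2.72%) as lower. The gene was Tmem263, a transmembrane protein, at 7.70 to 8.62 FPKM in VEH-T3 (median 8.11), 6.45 to 7.13 in Y397D-T3 (median 6.69) and 7.22 to 8.08 in VEH-HC (median 7.96). Y397D-T3 mice were below all mice of both other groups, with a log2 fold change of −0.24 ± 0.04 against VEH-T3 (adjusted p = 0.0383) and −0.19 ± 0.04 against VEH-HC (adjusted p = 0.00612). The call against VEH-HC ended with centred libraries and with length and GC trends removed. The call against VEH-T3 ended in 9 of 12 fits that left out 1 mouse of either group, where the adjusted p reached 0.212, and when the libraries were centred. Without VEH-T3 mouse 6, Gm12338 was called higher as well.

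The 515 higher genes had a median log2 fold change of 0.21 in VEH-T3 against VEH-HC and of 0.08 in Y397D-T3 against VEH-T3, and the 417 lower genes of −0.20 and −0.07. These contrasts share mice with the one that chose the genes, so they are values side by side and not a test of sharing. Egr1 stood at log2 fold changes of 0.61 in VEH-T3 and 0.55 in Y397D-T3 against VEH-HC. For Homer1 these were 0.45 and 0.44, for Egr4 0.25 and 0.46, for Nab2 0.09 and 0.28, for Arc 0.18 and 0.49, and for Dusp6 0.35 and 0.53. In the direct contrast the difference was 0.22 ± 0.09 for Egr4 (adjusted p = 0.597), 0.19 ± 0.06 for Nab2 (adjusted p = 0.52) and 0.30 ± 0.15 for Arc (adjusted p = 0.63), none past the threshold.

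Genes of the circadian clock moved in both directions. Of 19 tested, 3 were higher (15.8%) and 4 lower (21.1%, beside 3.16% of all tested genes). Per2, a repressor within the clock, ranged from 4.39 to 5.32 FPKM (median 4.65) in VEH-HC and from 6.30 to 7.35 (median 6.70) in Y397D-T3 without overlap, a log2 fold change of 0.44 ± 0.07 (adjusted p = 0.00134). Nr1d1, which encodes the repressor REV-ERB alpha, ranged from 51.9 to 60.5 FPKM (median 55.2) in VEH-HC and from 35.6 to 46.0 (median 40.2) in Y397D-T3, again without overlap, a log2 fold change of −0.45 ± 0.07 (adjusted p = 0.000711). Dbp, an output transcription factor, ranged from 31.4 to 53.3 FPKM (median 42.4) in VEH-HC and from 21.6 to 31.4 (median 28.9) in Y397D-T3. Its groups met at the lowest VEH-HC mouse, and the log2 fold change was −0.64 ± 0.11 (adjusted p = 0.00165). Ciart, a repressor of the activators CLOCK and BMAL1, fell by 0.58 on the log2 scale, from a median of 7.06 to 3.99 FPKM (SE 0.13, adjusted p = 0.0093). These 4 calls held in each of the 12 fits that left out 1 mouse.

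The clock activators were higher by less. Arntl, which encodes BMAL1, had a log2 fold change of 0.27 ± 0.08 (adjusted p = 0.0326) and Clock of 0.17 ± 0.05 (adjusted p = 0.0482), and these calls ended in 8 and 9 of the 12 fits. Clock was 5.50 FPKM in VEH-HC mouse 4 against 6.92 to 7.13 in the other 5 VEH-HC mice. Nr1d2, which encodes REV-ERB beta, was lower, with a log2 fold change of −0.25 ± 0.06 (adjusted p = 0.0213), and its call ended without Y397D-T3 mouse 2 or 5 and with centred libraries. The paper states that behavioural testing was done in the morning of the light phase, and it gives no such window for home cage mice. The time of day at which each mouse was killed is not given in the sources used here, and its part in these values was not tested. In VEH-T3 the same clock genes stood at log2 fold changes against VEH-HC of 0.36 for Per2, −0.40 for Nr1d1, −0.72 for Dbp and −0.67 for Ciart.

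CLOCK and BMAL1 bind the E-box, searched as CACGTG on both strands, which reads the same on each. It was in 9.07% of the promoters of higher genes, 13.6% of those of lower genes and 11.8% of all tested genes with a promoter. Ciart held 3 E-boxes upstream of its start, shown 5′ to 3′ on the minus strand with the E-box in capitals:
Ciart, chr3:95882330-95882353: atctagagtCACGTGttgccggta
Ciart, chr3:95882272-95882295: agggggaggCACGTGcagaaccgc
Ciart, chr3:95882258-95882281: gcagaaccgCACGTGtctgggagg
The middle and last windows overlap. No other called clock gene held an E-box within the 250 bases before a start, and Per2 had no promoter to search.

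**Figure D3:**
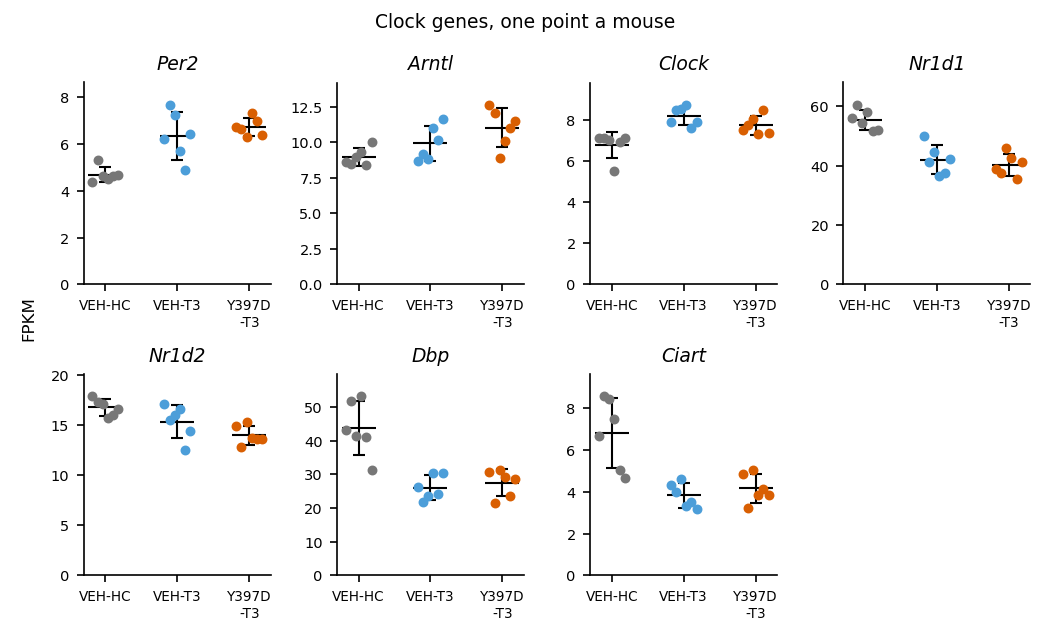
FPKM of the 7 called clock genes in each mouse (points), with the mean and SD of 6 mice (bars). Per2 was higher and Nr1d1 lower in every Y397D-T3 mouse than in every VEH-HC mouse, and the VEH-T3 means of Dbp and Ciart were near those of Y397D-T3.

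None of the 31 tested BAF subunits passed in either direction, with a median log2 fold change of 0.06, while 7 were higher and 3 lower at an unadjusted p, 1 was higher with centred libraries and 4 with length and GC trends removed. Of 24 genes of the CREB, CBP and histone acetyltransferase list, 2 were higher (8.33%, beside 3.91% of all tested genes) and 0 lower. They were Crebbp and the coactivator Ncoa3 (0.22 ± 0.07, adjusted p = 0.0463, a call that ended in 8 of the 12 fits). Of 44 histone lysine methyltransferases and demethylases, 6 were higher (13.6%, beside 3.91% of all tested genes) and 0 lower. The count was 2 without VEH-HC mouse 4 or Y397D-T3 mouse 2 or 5 and with only the 12 libraries in the fit, 3 without VEH-HC mouse 5, without Y397D-T3 mouse 6 and without the filter on mean FPKM, and 9 without Y397D-T3 mouse 1. Kdm7a, a demethylase of H3K9 and H3K27, ranged from 4.72 to 6.38 FPKM (median 6.00) in VEH-HC and from 7.31 to 9.83 (median 8.29) in Y397D-T3 without overlap, a log2 fold change of 0.47 ± 0.08 (adjusted p = 0.00134). Dot1l, the H3K79 methyltransferase, ranged from 6.56 to 8.81 FPKM (median 7.75) and from 9.76 to 13.8 (median 10.6), also without overlap (log2 fold change 0.45 ± 0.08, adjusted p = 0.00183). Kmt2a and Ash1l, methyltransferases of H3K4 and H3K36, were higher by 0.35 ± 0.09 (adjusted p = 0.0237) and 0.21 ± 0.06 (adjusted p = 0.0418). Their calls ended in 3 and 8 of the 12 fits, and both ended with only the 12 libraries in the fit. Without VEH-HC mouse 4 both calls ended, at log2 fold changes of 0.25 and 0.14. In VEH-T3 the fold changes of Kdm7a and Dot1l against VEH-HC were 0.57 and 0.39.

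Of 28 histone deacetylases and corepressors, 2 were higher (7.14%, beside 3.91% of all tested genes) and 0 lower. They were Sirt4, a mitochondrial sirtuin, at 0.44 ± 0.08 (adjusted p = 0.00267), and Ncor1, a corepressor, at 0.20 ± 0.06 (adjusted p = 0.028). The call of Ncor1 ended in 4 of the 12 fits that left out 1 mouse and with only the 12 libraries in the fit. One of those 4 left out VEH-HC mouse 4 (22.7 FPKM against 29.7 to 30.8 in the other 5). This list had 1 higher gene without VEH-HC mouse 4 or Y397D-T3 mouse 2, 5 or 6, 4 with centred libraries and 5 with length and GC trends removed. Of 26 rows of replication-dependent histones, 3 were higher (11.5%), Hist3h2a, Hist3h2ba and Hist2h4. The calls of the latter 2 each ended in 10 of the 12 fits that left out 1 mouse, and without the filter on mean FPKM Hist3h2a was the 1 called row. Hist3h2a, an H2A gene, ranged from 43.4 to 55.0 FPKM (median 50.9) in VEH-HC and from 70.7 to 87.1 (median 76.5) in Y397D-T3, with VEH-T3 at 49.8 to 75.7 (median 64.2). All Y397D-T3 mice were above all VEH-HC mice, and the log2 fold change was 0.62 ± 0.09 (adjusted p = 0.000622). Histone genes share sequence, so fragments could be divided among copies and their values are uncertain.

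Receptors for glutamate were higher in 2 and lower in 2 of 22 tested genes (9.09% each, beside 3.91% and 3.16% of all tested genes). Grin2a, the GluN2A subunit of NMDA receptors, ranged from 3.45 to 11.03 FPKM (median 8.70) in VEH-HC and from 11.3 to 19.9 (median 14.6) in Y397D-T3. The groups did not overlap, and the log2 fold change of 0.84 ± 0.18 (adjusted p = 0.00577) was 0.65 without VEH-HC mouse 4 (adjusted p = 0.0111). Gria2, the AMPA receptor subunit that limits calcium entry, rose from a median of 86.5 to 103 FPKM without overlap (log2 fold change 0.29 ± 0.07, adjusted p = 0.0145). Grm4 and Grm8, presynaptic metabotropic receptors, fell from medians of 3.61 to 2.04 and of 2.42 to 1.08 FPKM (adjusted p = 0.00823 and 0.0208), the latter call ending in 3 of the 12 fits. Among 12 GABA-A subunits, 1 was higher and 1 lower (8.33% each, beside 3.91% and 3.16% of all tested genes). Gabrb1 was higher (0.48 ± 0.09, adjusted p = 0.00248) and Gabrg1 lower (−0.45 ± 0.10, adjusted p = 0.00631).

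Of 26 sodium, calcium and HCN channel genes, 7 were higher (26.9%) and 1 lower (3.85%), beside 3.91% and 3.16% of all tested genes. Their median log2 fold change was 0.12. Cacnb1, a beta subunit of calcium channels, was between 43.4 and 48.0 FPKM in VEH-HC and between 50.4 and 54.4 in Y397D-T3, without overlap (0.18 ± 0.04 log2, adjusted p = 0.0099). Scn8a, a sodium channel of the axon initial segment, Cacna1a and Cacna1e, pore subunits of P/Q-type and R-type calcium channels, were higher by 0.30, 0.29 and 0.47 on the log2 scale (adjusted p = 0.0152, 0.0175 and 0.0194), and the calls of both calcium channels ended without Y397D-T3 mouse 2 or 5. Cacna2d2, an auxiliary subunit, fell by 0.63 (adjusted p = 0.0321), a call that ended in 7 of the 12 fits. The count of higher channels was 3 without Y397D-T3 mouse 2 or 5. Of 70 potassium channel genes, 5 were higher and 1 lower (7.14% and 1.43%, beside 3.91% and 3.16% of all tested genes). The higher count ranged from 2 to 6 over the fits that left out 1 mouse (2 without Y397D-T3 mouse 2, 3 without VEH-HC mouse 2, 5 or 6 or Y397D-T3 mouse 5 or 6), and with only the 12 libraries 9 were higher and 6 lower. Kcnq3, a subunit of the M-current channel, ranged from 5.72 to 12.2 FPKM (median 10.7) in VEH-HC and from 14.5 to 20.6 (median 16.2) in Y397D-T3, a log2 fold change of 0.68 ± 0.12 (adjusted p = 0.00187).

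Calcium sensors and calmodulin kinases gave 8 higher (22.2%) and 2 lower (5.56%) genes of 36, beside 3.91% and 3.16% of all tested genes. With length and GC trends removed 13 were higher, and 5 were higher without VEH-HC mouse 2, 5 or 6, without Y397D-T3 mouse 1 or 2, and without the filter on mean FPKM. The lower count was 5 with only the 12 libraries and 4 without Y397D-T3 mouse 3. Camk1d, a calmodulin kinase, and Camkk1, a kinase that activates it, showed no overlap between groups, with medians of 31.0 and 39.4 FPKM and of 61.3 and 82.1 FPKM (log2 fold changes 0.31 ± 0.06 and 0.37 ± 0.08, adjusted p = 0.00176 and 0.0064). Ppp3ca, the catalytic subunit of the phosphatase calcineurin, rose from 359 to 410.0 FPKM (median 376) to 453 to 516 (median 489), 0.36 ± 0.09 on the log2 scale (adjusted p = 0.0158). Calb2, which encodes the calcium buffer calretinin of some interneurons and mossy cells, ranged from 18.7 to 42.0 FPKM (median 34.6) in VEH-HC and from 6.23 to 19.3 (median 9.93) in Y397D-T3, a log2 fold change of −1.50 ± 0.37 (adjusted p = 0.0138). The ranges overlapped in 1 mouse of each group, and VEH-T3 had a median of 8.59 FPKM. Camk2d, the delta isoform of calmodulin kinase II, fell by 0.66 on the log2 scale (SE 0.15, adjusted p = 0.00987), with 1 Y397D-T3 mouse at 8.71 FPKM and the other 5 between 4.37 and 5.52.

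Postsynaptic scaffolds were higher in 6 of 25 genes (24.0%) and lower in 0, beside 3.91% and 3.16% of all tested genes. Besides Homer1, Dlgap2, a scaffold of the postsynaptic density, ranged from 8.62 to 12.5 FPKM (median 11.4) in VEH-HC and from 12.8 to 16.8 (median 14.8) in Y397D-T3, just without overlap (0.37 ± 0.07 log2, adjusted p = 0.00208). Shank3, a master scaffold, was higher by 0.27 ± 0.06 (adjusted p = 0.0123), and Homer2 by 0.29 ± 0.07 (adjusted p = 0.0201), whose call ended without VEH-HC mouse 4 and with length and GC trends removed. Of 31 rows for vesicle release, 3 were higher (9.68%, beside 3.91% of all tested genes) and 0 lower. Unc13a, the vesicle priming factor, was between 39.3 and 52.9 FPKM in VEH-HC and between 53.3 and 61.97 in Y397D-T3 (0.33 ± 0.06 log2, adjusted p = 0.0018). The vesicle count was 1 without VEH-HC mouse 2 or 5 or Y397D-T3 mouse 2, and 6 without Y397D-T3 mouse 1. Of 11 neurotrophin genes, 4 were higher (36.4%) and 1 lower (9.09%), beside 3.91% and 3.16% of all tested genes. The higher count was 2 without VEH-HC mouse 2, 5 or 6 or Y397D-T3 mouse 1, 2, 4 or 5. Ntrk3, the receptor of neurotrophin 3, was higher by 0.28 ± 0.06 (adjusted p = 0.00577) without overlap, a call that ended with length and GC trends removed. Ntrk2, the receptor of BDNF, was lower, with a log2 fold change of −0.19 ± 0.05 (adjusted p = 0.027), a call that ended in 5 of the 12 fits and with centred libraries.

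None of 84 ribosomal protein rows was called (4 higher and 2 lower at an unadjusted p), with a median log2 fold change of −0.03, though 3 were higher with centred libraries, 5 with length and GC trends removed and 2 without VEH-HC mouse 4. Oxidative phosphorylation gave 2 higher (2.44%) and 3 lower (3.66%) of 82 genes. With centred libraries 4 were higher and 0 lower, so no direction can be given for this list. Ndufa5, a complex I subunit, was higher by 0.32 ± 0.06 (adjusted p = 0.00408). Of 31 splicing factors, 2 were higher (6.45%) and 1 lower (3.23%), beside 3.91% and 3.16% of all tested genes. The higher count was 5 with centred libraries, 7 (with 2 lower) with length and GC trends removed, and 0 in 8 of the 12 fits that left out 1 mouse (VEH-HC mouse 1, 2, 3 or 4, or Y397D-T3 mouse 1, 4, 5 or 6). Hnrnpa1, a regulator of splice sites, fell by 0.35 on the log2 scale (SE 0.07, adjusted p = 0.00449), from 73.9 to 103 to 54.9 to 68.5 FPKM, and its value in VEH-HC mouse 4 (103 FPKM) was above those of the other 5 (73.9 to 77.9). Heat shock proteins gave 3 higher and 1 lower of 25. Dnajb5, given above, had the largest log2 fold change of the list, and Hsf1, the heat shock transcription factor, the smallest p (0.26 ± 0.05, adjusted p = 0.00284). Of 17 genes of the glucocorticoid response, 2 were higher (11.8%, beside 3.91% of all tested genes). Klf9, a direct target of the receptor, rose from a median of 44.1 to 57.8 FPKM (0.35 ± 0.06 log2, adjusted p = 0.00194). Nr3c2, the mineralocorticoid receptor, was higher by 0.31 ± 0.08 (adjusted p = 0.0221, a call that ended in 3 of the 12 fits).

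Interferon, DNA-sensing and reactive glia genes were followed because Y397D-T3 mice had received a plasmid. None of the 34 interferon and DNA-sensing genes was called in either direction (0 also at an unadjusted p), with a median log2 fold change of 0.04. None of the 24 injury and reactive glia genes was called (0 higher and 1 lower at an unadjusted p), with a median of −0.45. Gfap, the astrocyte filament, ranged from 346 to 684 FPKM in VEH-HC and from 229.9 to 752 in Y397D-T3, and B2m, a class I MHC subunit, from 112 to 374 and from 108 to 331. VEH-HC mice had been given the same reagent, so these lists compare the plasmid, habituation and training and not the infusion itself.

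**Figure D4:**
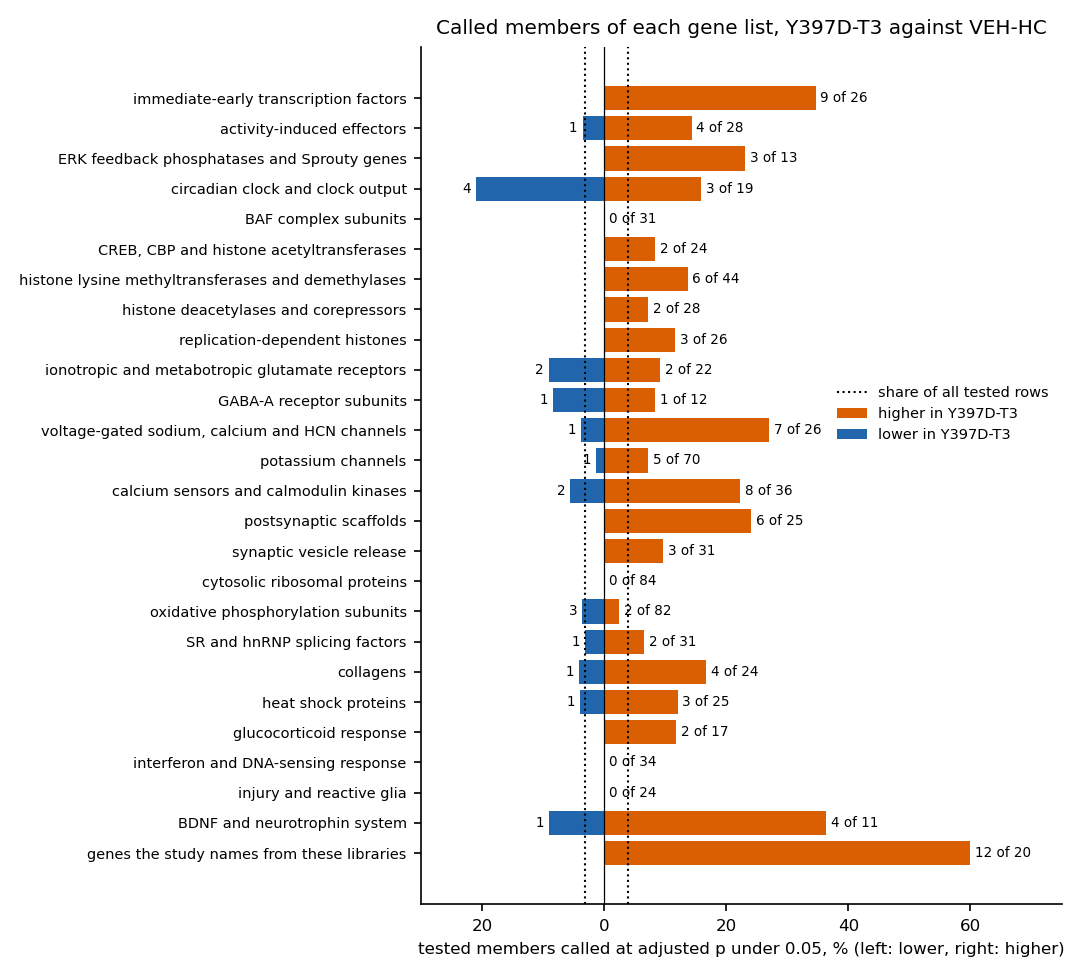
Share of the tested members of each gene list that were higher (right) or lower (left) in Y397D-T3 than in VEH-HC at an adjusted p under 0.05, with the counts. Dotted lines mark the shares over all tested genes, 3.91% and 3.16%, and the last list was drawn up by the study from these libraries.

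Collagens gave 4 higher (16.7%) and 1 lower (4.17%) of 24 genes, beside 3.91% and 3.16% of all tested genes. Their median log2 fold change was −0.18. These calls were not stable. The higher count was 1 without VEH-HC mouse 3, 4 or 5 or Y397D-T3 mouse 2 or 5, and 2 without VEH-HC mouse 2 or Y397D-T3 mouse 1, 4 or 6. With only the 12 libraries 4 were higher and 5 lower. The calls of Col4a2, Col11a2 and Col19a1 ended in 6, 8 and 11 of the 12 fits. Col11a1, a fibrillar collagen, was higher by 0.70 ± 0.15 (adjusted p = 0.00726) at medians of 1.42 and 2.96 FPKM, and Col23a1, a transmembrane collagen, was lower, with a log2 fold change of −0.66 ± 0.18 (adjusted p = 0.0243, ended in 4 of the 12 fits).

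The genes with the largest rises and no overlap between groups began with Hbb-bs, a beta globin. It was listed near 0 in all 6 VEH-HC mice and at 4.84 to 79.6 FPKM in Y397D-T3 (median 35.1), with VEH-T3 at up to 30.1. Its sequence is nearly the same as that of other beta globins, among which Hbb-b1 had a mean of 391 ± 95.1 FPKM (SD, n = 6) in VEH-HC and 536 ± 280 in Y397D-T3 and was not called, so the row is uncertain and no fold is given. The 8 rows of the blood markers (globins and Alas2) together stood at 939 to 1874 FPKM in VEH-HC, 989.7 to 2618 in VEH-T3 and 1107 to 3257 in Y397D-T3. All 8 had a positive log2 fold change, with a median of 0.44, and 1, Hbb-bs, was called; the part of blood in this row was not tested. Gm12338, annotated as a processed pseudogene, ranged from 5.92 to 8.67 to 14.9 to 18.8 FPKM and is uncertain in the same way, with a call that ended when length and GC trends were removed.

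Dok6, an adaptor of the RET and TrkC receptors, ranged from 6.12 to 15.96 FPKM (median 12.1) in VEH-HC and from 19.0 to 30.3 (median 23.6) in Y397D-T3, a log2 fold change of 1.00 ± 0.18 (adjusted p = 0.00176). Epha6, a receptor for ephrin A ligands, ranged from 7.39 to 12.7 FPKM (median 10.8) and from 16.8 to 24.5 (median 18.9), 0.83 ± 0.12 on the log2 scale (adjusted p = 0.000529). Malat1, a nuclear long noncoding RNA, ranged from 17.4 to 40.7 FPKM (median 32.5) and from 40.8 to 73.2 (median 59.2), 0.90 ± 0.15 (adjusted p = 0.00134). In these 3 genes VEH-HC mouse 4 was the lowest mouse, and without it the log2 fold changes were 0.84, 0.75 and 0.74. Zbtb20, a transcription factor of hippocampal development, rose from a median of 1.59 to 3.25 FPKM and Tnfrsf25, a death receptor, from 2.38 to 5.79 (adjusted p = 0.00377 and 0.00299). Robo3, a receptor of axon guidance, rose from a median of 3.47 to 8.36 FPKM. The medians rose from 0.718 to 2.35 FPKM for Hist2h4, an H4 gene, and from 4.67 to 8.18 for Dgkh, a diacylglycerol kinase. The calls of Robo3, Hist2h4 and Dgkh ended in 7, 10 and 1 of the 12 fits that left out 1 mouse, the last without VEH-HC mouse 4. In VEH-T3 the log2 fold changes against VEH-HC were 0.72 for Dok6, 0.69 for Epha6, 0.65 for Malat1 and 0.80 for Grin2a.

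The largest falls without overlap ranged from −1.49 to −0.71 on the log2 scale over 12 genes. Gpx3, a secreted glutathione peroxidase, ranged from 4.36 to 27.9 FPKM (median 8.82) in VEH-HC and from 1.94 to 3.69 (median 2.65) in Y397D-T3, a log2 fold change of −1.49 ± 0.38 (adjusted p = 0.0182). Its call ended without VEH-HC mouse 5, where the log2 fold change was −1.19. Dcn, the proteoglycan decorin of meninges, ranged from 17.1 to 27.9 FPKM (median 19.997) and from 6.78 to 10.9 (median 10.0), −1.06 ± 0.20 on the log2 scale (adjusted p = 0.00248). Slc17a6, the vesicular glutamate transporter of thalamus and subcortical neurons, ranged from 3.60 to 5.06 FPKM (median 4.48) and from 0.733 to 3.52 (median 1.79), −0.95 ± 0.25 (adjusted p = 0.0199), a call that ended without Y397D-T3 mouse 2 or 5.

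Wdr6, a WD repeat protein, was the most abundant of these 12 genes, from 42.0 to 58.9 FPKM (median 52.1) in VEH-HC to 26.8 to 38.0 (median 30.1) in Y397D-T3 (−0.71 ± 0.18, adjusted p = 0.0199), a call that ended without Y397D-T3 mouse 5. Zcchc12, a transcriptional coactivator, fell from a median of 22.2 to 11.9 FPKM, Cpne2, a calcium-dependent membrane-binding protein, from 18.9 to 10.2, Slc7a3, a transporter of cationic amino acids, from 2.65 to 1.10, and Ngb, the neuronal globin, from 2.13 to 0.63 (adjusted p = 0.00867, 0.02, 0.00459 and 0.0087). Sod3, Syt9, Baiap3 and Tmem53 fell as well, from medians of 12.3, 2.57, 1.90 and 3.17 to 6.60, 0.859, 0.74 and 1.59 FPKM, and their calls ended in 5, 7, 1 and 10 of the 12 fits.

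Markers of tissue around the hippocampus are given beside these genes. The summed FPKM of 10 choroid plexus markers ranged from 1075 to 6394 (median 3649.9) in VEH-HC, from 65.2 to 14419 (median 2312) in VEH-T3 and from 44.8 to 3210.5 (median 186) in Y397D-T3. None of the 10 passed the adjusted test, 8 were lower at an unadjusted p, none was at 0 in either group, and their median log2 fold change was −2.35. Ttr, transthyretin, the leading marker, had a log2 fold change of −4.49 ± 1.78 (adjusted p = 0.117). The 9 meningeal fibroblast markers summed to between 60.3 and 137 FPKM in VEH-HC and between 24.3 and 75.9 in Y397D-T3, with 1 called lower, Dcn. The 10 thalamus markers, of which 9 were tested, summed to between 41.0 and 60.7 FPKM in VEH-HC and between 31.1 and 49.4 in Y397D-T3, with 2 called lower, Slc17a6 and Tcf7l2, a Wnt pathway transcription factor (−0.37 ± 0.10, adjusted p = 0.0211). The 8 ependymal markers together stood at 44.3 to 75.6 FPKM in VEH-HC, 12.7 to 122 in VEH-T3 and 25.2 to 50.6 in Y397D-T3. None of the 7 tested passed, 1 was lower at an unadjusted p, and all 7 had a negative log2 fold change (median −0.46). The part of these tissues in the lowered genes was not tested.

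**Figure D5:**
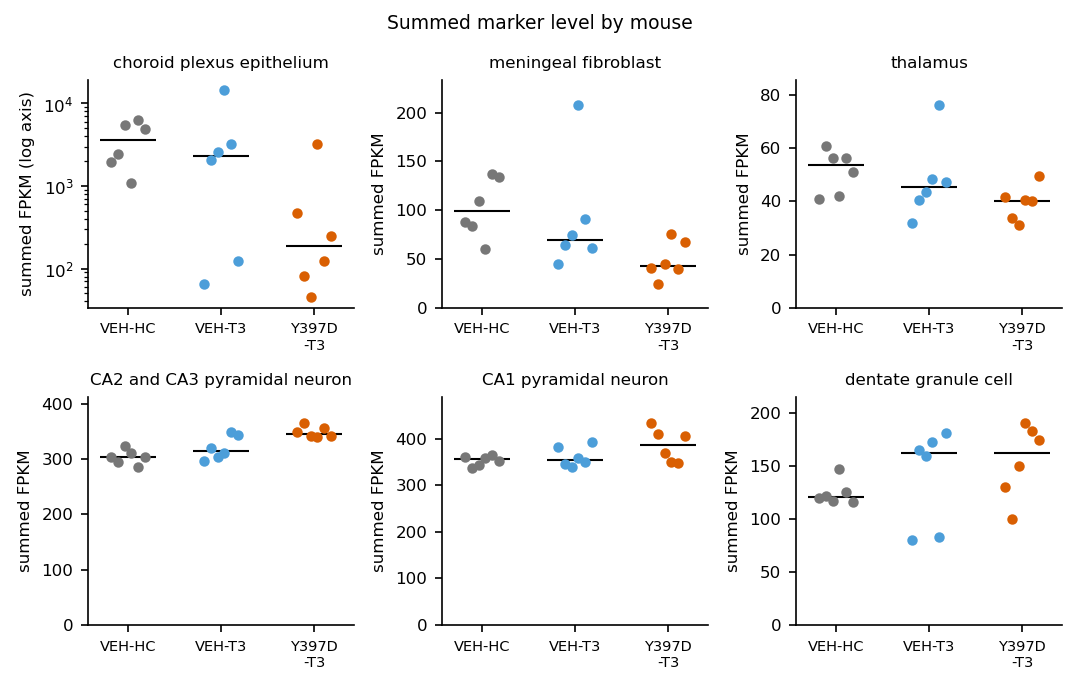
Summed FPKM of the markers of 6 cell types or regions in each mouse (points), with group medians (lines) and a log axis for choroid plexus. Choroid plexus and meningeal sums were mostly lower in Y397D-T3 than in VEH-HC, and CA2 and CA3 sums were higher without overlap.

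Among neuronal markers, the 10 of CA2 and CA3 pyramidal neurons summed to between 286 and 323 FPKM in VEH-HC and between 339.9 and 366 in Y397D-T3, without overlap. This sum was carried mainly by Nptx1, neuronal pentraxin 1, at 123 to 137 FPKM (median 131) in VEH-HC and 142 to 176 (median 168) in Y397D-T3. Nptx1 and the cadherin Cdh24 were called higher (0.33 ± 0.07 and 0.51 ± 0.10, adjusted p = 0.00442 and 0.00414). Of the 10 markers, 7 had a positive log2 fold change and 3 a negative one, down to −0.61. At an unadjusted p, 5 were higher and 1 lower. Of 8 CA1 markers, 1 was higher, Pou3f1, a POU transcription factor (0.33 ± 0.08, adjusted p = 0.0198, ended without Y397D-T3 mouse 6). The dentate granule cell markers summed to between 116 and 147 FPKM in VEH-HC and between 99.9 and 191 in Y397D-T3. None of the dentate, interneuron, astrocyte, oligodendrocyte, precursor or microglia markers passed the test. At an unadjusted p, 4 of 10 interneuron, 2 of 6 precursor and 1 of 8 astrocyte markers were lower, 1 of 8 dentate markers was higher, and 0 oligodendrocyte and 0 microglia markers passed in either direction. Of 7 deep cortical markers, Hs3st4 was higher and Ctgf lower, and both calls ended in 8 or more of the 12 fits. Of 11 vascular markers, Slco1a4, a transporter of the endothelium, was lower (−0.42 ± 0.10, adjusted p = 0.0158).

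The study names 20 tested rows from these libraries as genes of interest, and 12 of them were higher and 0 lower. The list was chosen on these samples and is not independent evidence of its direction. Besides genes given above, it holds Hpca, the calcium sensor hippocalcin, at log2 fold change 0.41 ± 0.11 (adjusted p = 0.0301, ended in 6 of the 12 fits), and Homer3 at 0.32 ± 0.10 (adjusted p = 0.0465, ended in 10). Members that did not pass were Grin2b, an NMDA receptor subunit (0.35 ± 0.20, adjusted p = 0.268; 0.15 without VEH-HC mouse 4), Tesc, a calcium-binding protein (0.27 ± 0.08, adjusted p = 0.0534), Smoc2, a matricellular protein (0.27 ± 0.09, adjusted p = 0.0541), Zfpm1, a cofactor of GATA factors (0.33 ± 0.11, adjusted p = 0.0541), Plch2, a phospholipase C (0.29 ± 0.13, adjusted p = 0.155), Fos, and 2 histone rows. Hist1h4j had a log2 fold change of 0.81 ± 0.49 (adjusted p = 0.302), with values down to 0 in both groups. The other, Hist2h2aa2, had the 1 negative log2 fold change of the list, −0.13 (adjusted p = 0.922). Its value lay between −0.31 and 0.14 when 1 mouse was left out.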

How the data were processed

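RNA of the dorsal hippocampus was sequenced as 150-base paired ends on NovaSeq and HiSeq instruments, and the sources used here do not say which library ran on which. The authors deposited FPKM per gene symbol, made with TopHat2 2.1.1 and Cufflinks 2.2.1 on mm10, the build of the coordinates given here; strand is not stated, so genes overlapping on opposite strands cannot be told apart. Of the columns, 0 were left out, and 280 symbols stand on 817 rows. RNA integrity of each mouse is not given beyond a stated minimum.

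Conditions followed the labels, and the 6 replicates of a group are separate mice. Rows with a mean of at least 1 FPKM were converted to log2(FPKM + 1). A linear model with a coefficient for each condition was fitted over all 30 libraries with limma 3.58.1 (R 4.3.3), with a variance trend and Benjamini-Hochberg adjustment over 13184 rows (threshold 0.05). Fold changes are on that scale, which understates changes of low genes. The script was tested on simulated data. Members, gene lists and alternatives were chosen with earlier results of these data known. Named genes were Ss18l1, Crebbp, the 12 raised and 12 lowered genes of largest fold change without overlap, up to 4 called members per list and direction, defining markers, genes the study names, and genes called against VEH-T3. Alternatives covered the pseudocount, low-value filter, centring, libraries in the fit, replicate block, summed symbols, length and GC, and leaving out each mouse. Leaving out VEH-HC mouse 4 and Y397D-T3 mouse 1 together was added after seeing the data. Lengths, GC content and coordinates came from GENCODE vM21 and promoters from RefSeq (GRCm38.p6).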

Additional observations from a re-analysis of the deposited data

Results flagged for a closer look

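In each group of 6 mice, the level of the named genes was examined for a mouse far from the others, with a gap to the next mouse, as a share of the group's range on the log2 scale, past Dixon's critical value. Genes named only as cell type markers were not examined. Of 266 gene and group pairs, 28 held such a mouse (10.5%). For independent normal values about 1 in 20 would be flagged. The genes share the same mice and many were chosen on these groups, so the share cannot be set against that rate. Values below are FPKM, with the range of the other 5 mice in parentheses.

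VEH-HC mouse 4 accounted for 15 of the 28. It was low for Crebbp 3.89 (5.76 to 6.59), Dok6 6.12 (11.4 to 15.96), Malat1 17.4 (31.3 to 40.7), Grin2a 3.45 (7.46 to 11.03), Dgkh 1.68 (3.60 to 5.20), Kcnq3 5.72 (9.40 to 12.2), Clock 5.50 (6.92 to 7.13), Kmt2a 4.89 (7.33 to 8.68), Ash1l 8.56 (11.3 to 12.7), Ncor1 22.7 (29.7 to 30.8), Cacna1e 8.81 (13.8 to 16.4), Kcnj6 9.91 (13.1 to 14.4) and Grin2b 4.76 (11.3 to 13.7). It was high for Rplp1 1712 (1302 to 1387) and Hnrnpa1 103 (73.9 to 77.9).

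Y397D-T3 mouse 1 was low for Spred1 22.9 (24.5 to 25.3), Kmt2a 7.44 (9.64 to 10.6), Cacna1e 13.9 (19.0 to 22.2), Kcnj6 13.5 (17.9 to 19.98) and Rplp1 979 (1354 to 1608). VEH-HC mouse 2 was high for Per2 5.32 (4.39 to 4.68). VEH-HC mouse 3 was low for B2m 112 (273 to 374). Y397D-T3 mouse 2 was high for Epha6 24.5 (16.8 to 19.1). Y397D-T3 mouse 3 was high for Gm12338 18.8 (14.9 to 15.5), Slc7a3 1.70 (0.912 to 1.16) and Camk2d 8.71 (4.37 to 5.52). Y397D-T3 mouse 4 was high for Sod3 9.89 (6.03 to 6.84). Y397D-T3 mouse 5 was low for Atp5d 214 (238 to 254). 

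Tmem263 differed in its change from VEH-HC between the trained groups, by the direct contrast of Y397D-T3 with VEH-T3 (−0.24 ± 0.04 on the log2 scale, limma, adjusted p = 0.0383), with all 6 Y397D-T3 mice below all 6 VEH-T3 mice. Against VEH-HC it was −0.19 in Y397D-T3 and 0.05 in VEH-T3.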

How the results depend on the processing

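The counts of genes higher and lower than VEH-HC stayed within 1.5 times of 515 and 417 with a pseudocount of 0.1, without the filter on mean FPKM and with rows of a symbol summed. At an unadjusted p they were 1358 and 1929. Centring gave 248 lower genes, the fit of 12 libraries 1160 lower genes, and removal of length and GC trends 881 higher and 217 lower genes. When 1 mouse was left out, the counts ranged from 289 to 526 higher and from 183 to 527 lower, and 241 higher and 149 lower genes kept their call in all 12 fits. Against VEH-T3, 679 genes were higher and 358 lower at an unadjusted p. The lower count of 1 was 0 without the filter, with centring, with the 12 libraries only, with length and GC removed, and with VEH-HC mouse 4 and Y397D-T3 mouse 1 left out. Leaving out 1 mouse gave 0 to 1 higher and 0 to 1 lower genes. Replicate numbers did not pair the mice: the correlation of deviations of same-numbered mice ranged from −0.335 to 0.343. The replicate block gave 529 higher and 510 lower genes against VEH-HC and 0 and 0 against VEH-T3. Of 112 called genes named by the rule, 62 kept their call in all 12 fits that left out 1 mouse, none changed sign, and 10 lost it with centring, 14 with length and GC removed, 16 without the filter and 25 with both doubted libraries left out. The causes of these changes were not tested. FPKM give no absolute depth, so the spread between mice sets the precision, and values below 1 FPKM are imprecise.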
